A study of Rattus norvegicus with 10 samples.

Results

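Cytosolic ribosomal protein genes were compared between rat left ventricles that had received GATA-4 and left ventricles that had received LacZ. Members were the probe sets whose platform gene symbol starts with Rpl or Rps, without the Rps6k kinases and without pseudogenes, with the brightest single-gene probe set standing for each gene. This gave 49 genes among the 14217 genes with a single-gene probe set, read by 56 single-gene probe sets. A symbol is not a function, and 1 of the 49, Rpl-1, is a placental lactogen by its synonyms and no ribosomal protein, so 48 ribosomal members remain. A further 33 probe sets list several genes with a ribosomal protein among them and are given as a group without names.

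The samples were left ventricles of male Sprague-Dawley rats of 250 to 300 g, taken 3 days after gene transfer. The source label of each array names the transferred gene, GATA-4 on 5 arrays and LacZ, which encodes bacterial beta-galactosidase and was the control, on the other 5. All 10 rats therefore had a transfer, and an untouched ventricle is not among the samples. The labels name neither the vehicle, the promoter, the site of transfer nor the animals' age, and they do not say whether an array holds 1 animal, so p-values measure the spread between these samples.

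The cytosolic ribosome is built from a small subunit, which reads the messenger RNA, and a large subunit, which joins the amino acids and carries the flexible stalk that recruits translation factors. Its proteins are needed in equal number, and their messenger RNAs are among the most abundant of most cells. Many of these messengers start with a run of pyrimidines, the terminal oligopyrimidine (TOP) tract, through which the growth kinase mTOR and the protein Larp1 control their translation. Striated muscle also makes Rpl3l, a close relative of the large subunit protein Rpl3 that takes the place of Rpl3 in muscle ribosomes. Growth of the heart muscle goes with more ribosomes per cell.

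The start sites of the members were read first, because a shared TOP tract was not used to choose them. RefSeq's table of build GRCr8 held the start of 43 members, with 1 start kept for each gene. A run of at least 6 bases that are each C or T lay within the 30 bases around the start (15 before and 15 after) in 32 of 43 members, or 74.4%, against 28.3% of all 27457 genes in that table and 31.7% of 63 mitochondrial ribosomal protein genes. A run of at least 8 was found in 58.1% of members and in 11.4% of all genes. The sequences below show 4 members with such a run and 4 that bear on the expression results, namely the risers Rpl3, Rpl41 and Rpl26 and the muscle relative Rpl3l. Each is the gene's own strand, 5′ to 3′, and capitals mark the longest C or T run where it has at least 6 bases. On the plus strand lie Rpl27a (chr1:172974558-172974587), Rpl14 (chr8:129163605-129163634), Rpl19 (chr10:83519049-83519078), Rpl26 (chr10:54109677-54109706) and Rpl3l (chr10:14258431-14258460). On the minus strand lie Rplp0 (chr12:46718376-46718405), Rpl3 (chr7:113507976-113508005) and Rpl41 (chr7:1563483-1563512).
Rpl27a: cgagacttggtgggCTCCTCCCTCTTTCTT
Rpl14: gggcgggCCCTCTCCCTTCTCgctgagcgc
Rpl19: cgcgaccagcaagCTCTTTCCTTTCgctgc
Rplp0: gaccgcaccgcaCTTCTCTCgccaggcgtc
Rpl3: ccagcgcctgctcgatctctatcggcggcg
Rpl41: ggcggctcggaagtgacgacaccaagcacg
Rpl26: ctcgtgtcaacttacagaaccggaagtcgc
Rpl3l: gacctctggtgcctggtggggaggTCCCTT
In Rpl27a, Rpl14, Rpl19 and Rplp0 the run spans the annotated start. Rpl3 has 5 such bases at its start, Rpl41 and Rpl26 at most 3 in a row, and Rpl3l holds its run at the far end of the window. RefSeq starts need not be the starts used in this tissue, so a missing run says only that these letters are not in this window.

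GATA-4 binds short motifs around the letters GATA, so the 300 bases of each promoter (250 before and 50 after the start) were also searched on both strands for AGATAA and its variant TGATAA, and for AGATAG and its variant TGATAG. At least 1 of them was present in 9 of 43 members, or 20.9%, and in 29.9% of all genes, and a match is not a site. Rpl27a, shown above, is among these 9. The letters CTTCCG, part of an ETS factor motif, were found on either strand in 46.5% of members, 50.8% of mitochondrial ribosomal protein genes and 17.4% of all genes. CACGTG, the E-box that Myc can bind, was found in 6.98% of members and 6.65% of all genes.

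The arrays set limits that touch every value below. LacZ arrays had 2%-trimmed mean signals of 249.2 to 313.6. Array 1 of the GATA-4 group was dim, at 142.3, and its other arrays had 249.5 to 328.7. That array is named the dim array here. Values are therefore given on the log2 scale after quantile normalization, which gives every array the same distribution, and beside them after median centring, which shifts each array by a constant. Gata4 itself read 10.65 ± 0.13 in the LacZ group and 11.44 ± 0.14 in the GATA-4 group (SD, n = 5 each), a difference of 0.79 (SE 0.09, adjusted p = 0.00131), and no array of either group crossed into the other. A second, dimmer Gata4 probe set did not pass the filter on mean signal and was not tested. It read 4.44 ± 1.11 with LacZ and 5.24 ± 0.65 with GATA-4 (SD, n = 5 each), and its groups overlapped. The 13 measured markers of heart muscle cells were bright, with mean log2 signals from 12.57 (Ryr2) to 13.67 (Myh7) with LacZ. Of the 4 atrial markers Nppa, which a stressed ventricle also makes, read 13.02, and Myl4, Myl7 and Sln read 7.22, 6.58 and 5.86, where levels of different probe sets are no measure of abundance.

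Ribosomal protein genes read slightly higher with GATA-4 after quantile normalization, and after median centring their differences were smaller and of mixed sign. Of the 44 members that passed the filter on mean signal, 42 had a positive difference, 4 rose and 0 fell. Among all 10688 genes tested 5068 had a positive difference. Members went up and down together over the 10 arrays, with a median pairwise Pearson r of 0.507 (0.661 after median centring). Their signs are therefore not independent observations. The members' median difference was 0.12 in log2 units, where the median over all 10688 genes tested was -0.02. All 4 that rose, Rpl26, Rpl3, Rpl27a and Rpl41, belong to the large subunit, and their rises lay between 1.15-fold and 1.22-fold. Most tested members do so too: 26 of the 44 are large subunit proteins outside the stalk and 12 are small subunit proteins. An unadjusted p under 0.05 was reached by 12 of those 26 and by 6 of those 12. Among all genes tested 6.37% changed, 3.71% upwards and 2.66% downwards, beside which the share of members that rose was 9.09%, a difference of few genes. An unadjusted p under 0.05 was reached by 19 members (43.2% of those tested), 1 of them lower, and by 24.2% of all genes. After median centring 27 of the 44 differences were positive, where 4404 of all 10690 genes tested had a positive difference. The members' median was 0.03 where all genes had -0.06, no member changed, and the smallest adjusted p of a member was 0.161. In that scaling 4.57% of all genes changed, 2.07% upwards and 2.5% downwards, and 1 member, Rpl3l, had an unadjusted p under 0.05, as did 23.9% of all genes.

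**Figure D1:**
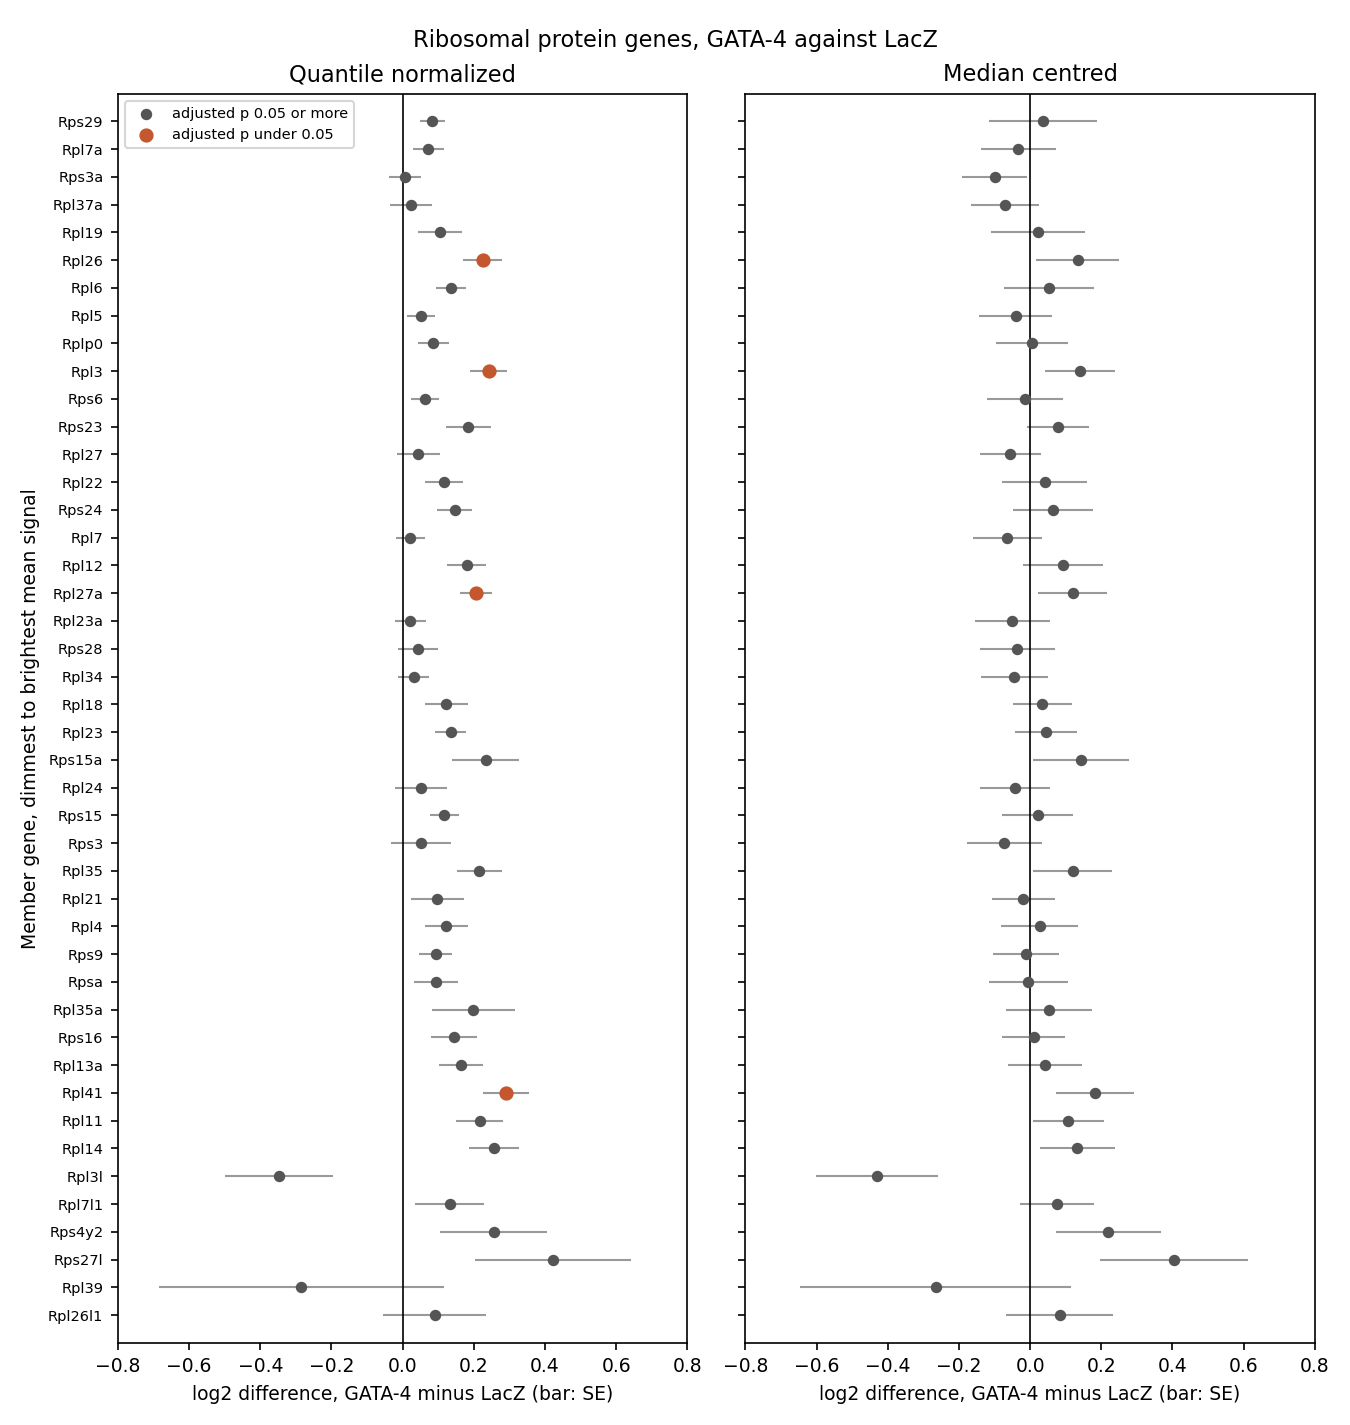
Log2 difference (GATA-4 minus LacZ, x axis) with its standard error for the 44 tested members, ordered from the dimmest at the bottom to the brightest at the top, after quantile normalization (left) and median centring (right); orange points passed an adjusted p of 0.05. After quantile normalization 42 points lie right of 0 and 4 passed, while after median centring 27 lie right of 0, the bars are wider and none passed.

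The standard error of a difference was wider after median centring, with a median of 0.10 over the 37 members at a mean log2 of 12 or more, against 0.05 after quantile normalization. These 37 all lie at or above the 98.8th percentile of probe sets by mean signal. Signals of different probe sets are no measure of relative abundance, and only differences of the same probe set are compared.

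Rpl26 sits near the exit of the tunnel through which the new protein leaves the large subunit. It read 13.00, 13.00, 12.90, 12.81 and 12.99 on LacZ arrays 1 to 5 and 13.10, 13.23, 13.25, 13.05 and 13.19 on GATA-4 arrays 1 to 5. Every GATA-4 array lay above every LacZ array, with the closest pair 13.05 and 13.00. The difference was 0.22 (SE 0.05, adjusted p = 0.0329).

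Rpl3 reaches towards the site of peptide bond formation. Its signal was 12.85, 12.84, 12.77, 12.89 and 12.85 with LacZ and 12.97, 13.19, 13.20, 13.01 and 13.03 with GATA-4, again without overlap. It rose by 0.24 (SE 0.05, adjusted p = 0.0236). A second, dimmer Rpl3 probe set, at a mean log2 of 7.45, went the other way, by -0.92 (SE 0.39, adjusted p = 0.192), and with both probe sets averaged the difference was -0.34 (adjusted p = 0.313), so the rise of Rpl3 rests on the brighter probe set.

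Rpl27a, another protein of the large subunit, read 12.70, 12.68, 12.62, 12.56 and 12.71 with LacZ and 12.81, 12.87, 12.91, 12.87 and 12.84 with GATA-4. The groups did not overlap, and the difference was 0.21 (SE 0.04, adjusted p = 0.0232). Rpl41, among the smallest proteins of the ribosome, had the widest rise, with 12.20, 12.10, 12.01, 11.89 and 12.10 with LacZ and 12.33, 12.35, 12.46, 12.23 and 12.38 with GATA-4. It rose by 0.29, or 1.22-fold (SE 0.06, adjusted p = 0.0255).

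Each of these 4 rises ended under another scaling. After median centring the differences were 0.13 for Rpl26, 0.14 for Rpl3, 0.12 for Rpl27a and 0.18 for Rpl41, with adjusted p-values of 0.534, 0.425, 0.500 and 0.346. With single arrays left out, Rpl26 kept its call in 3 of 10 fits, Rpl41 in 5, Rpl3 in 6 and Rpl27a in 7. Without LacZ array 3 or without GATA-4 array 3 no member rose, and 0.944% and 1.5% of all genes did. Without LacZ array 1 or GATA-4 array 5 there were 2 (1.86% and 2.34% of all genes), and without LacZ array 4 or 5 there was 1 (1.91% and 1.59%). Without the dim array 13 of the 44 tested members rose, and so did 1064 of 10696 genes (9.95%). Calls thus became more frequent among the members and over the whole array set.

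**Figure D2:**
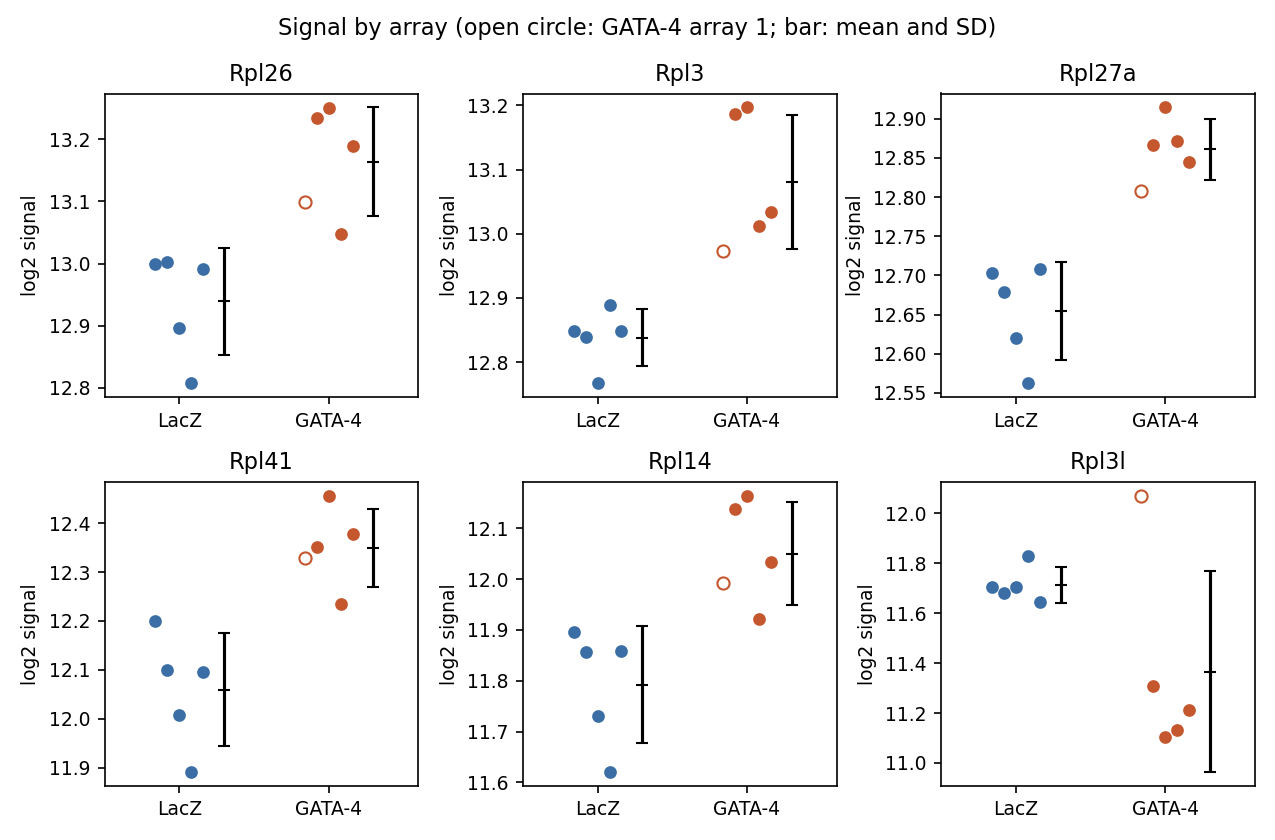
Quantile normalized log2 signal (y axis, a separate range in each panel) of 6 members on the 5 LacZ arrays (blue) and the 5 GATA-4 arrays (orange, array 1 as an open circle), with the mean and SD beside each group. Rpl26, Rpl3, Rpl27a, Rpl41 and Rpl14 have no overlap between the groups, while Rpl3l is low on GATA-4 arrays 2 to 5 and highest of all on array 1.

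The groups did not overlap in 8 tested members, all higher with GATA-4, where 4.56% of all genes tested were higher without overlap and 5.1% lower. Beside the 4 that rose these were Rpl14, Rpl23, Rps15 and Rps24, the last 3 named after their values were seen. Rpl14, of the large subunit, missed the threshold narrowly. It read 11.90, 11.86, 11.73, 11.62 and 11.86 with LacZ and 11.99, 12.14, 12.16, 11.92 and 12.03 with GATA-4, a difference of 0.26 (SE 0.07, adjusted p = 0.0505). After median centring no member was without overlap, where 2.84% of all genes were higher and 5.45% lower without overlap.

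Small subunit proteins showed the same sign with smaller values. All 12 tested members had positive differences after quantile normalization, from 0.01 (Rps3a) to 0.23 (Rps15a, named after its values were seen), with a median of 0.09, and none rose. After median centring 6 of the 12 were positive and the median was 0.00. Rps3a, which lies at the exit of the messenger channel, was level with 13.11 ± 0.01 with LacZ and 13.12 ± 0.09 with GATA-4 (SD, n = 5 each), and its difference turned to -0.10 after median centring. Rps29, the brightest member and a zinc-binding protein of the small subunit, differed by 0.08 (SE 0.04, adjusted p = 0.191). Of the 26 tested large subunit members outside the stalk, 25 were positive after quantile normalization and 16 after median centring, with medians of 0.12 and 0.04.

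The acidic stalk was represented by Rplp0, its base. It read 12.93 ± 0.08 with LacZ and 13.02 ± 0.03 with GATA-4 (SD, n = 5 each), a difference of 0.09 (SE 0.04, adjusted p = 0.273) that was 0.00 after median centring. Rpl5 and Rpl11 travel with a small ribosomal RNA as a particle that can also bind the p53 regulator Mdm2. They differed by 0.05 (SE 0.04, adjusted p = 0.473) and 0.22 (SE 0.07, adjusted p = 0.0735), and the difference of Rpl5 turned to -0.04 after median centring.

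Several members serve as reference genes in expression work, and none of those tested changed. Rplp0, Rpl13a, Rpl4, Rpl27 and Rpl19 differed by 0.09, 0.16, 0.12, 0.04 and 0.10 after quantile normalization, with adjusted p-values from 0.148 (Rpl13a) to 0.718 (Rpl27). After median centring they differed by 0.00, 0.04, 0.03, -0.06 and 0.02. Rpl7, Rpl7a and Rpl23a of the large subunit were also near level, at 0.02, 0.07 and 0.02, and all 3 turned negative after median centring, to -0.06, -0.03 and -0.05. Rpl22, whose relative Rpl22l1 had no single-gene probe set, differed by 0.12 (SE 0.05, adjusted p = 0.227).

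The muscle relative Rpl3l went against the other bright members. Its signal was 11.71, 11.68, 11.70, 11.83 and 11.64 on LacZ arrays 1 to 5 and 12.07, 11.31, 11.11, 11.13 and 11.21 on GATA-4 arrays 1 to 5. Arrays 2 to 5 of the GATA-4 group lay below every LacZ array, and the dim array lay above every one of them. Over all arrays the difference was -0.35 (SE 0.15, adjusted p = 0.200), so Rpl3l did not pass the test. Without the dim array it was -0.51 (SE 0.06, adjusted p = 6.19e-04), and -0.62 (adjusted p = 0.00118) with median centring as well, each a call that rests on leaving out that array.

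The ratio of Rpl3l to Rpl3 within an array is the same under any scaling that multiplies an array by a constant, but not under quantile normalization. On the signals as deposited its log2 was -1.16, -1.10, -1.05, -1.02 and -1.23 with LacZ and -1.19, -1.72, -1.87, -1.88 and -1.76 with GATA-4, where the first of the latter is the dim array, inside the LacZ range. The ratio was lower with GATA-4 by 0.57 on average, from -1.11 ± 0.09 to -1.68 ± 0.29 (SD, n = 5 each; exact two-sided permutation p = 0.0159, where 0.00794 is the smallest possible, and 0.0476 adjusted over the 3 pairs of relative and namesake tested). After quantile normalization the dim array read -0.90, above every LacZ array, the other GATA-4 arrays read -2.09 to -1.82, and the difference of -0.59 no longer passed (exact permutation p = 0.0476, 0.0714 adjusted over the 3 pairs). In both scalings 4 of the 5 GATA-4 arrays lay below every LacZ array. The ratio uses the brighter Rpl3 probe set, and this test was added after the values were seen. The dimmer Rpl3 probe set differed by -0.92 after quantile normalization, where Rpl3l differed by -0.35. A ratio to the dimmer one would thus be higher with GATA-4, so the direction rests on the choice of probe set, and that ratio was not tested. The ratios of Rpl7l1, a nucleolar relative, to Rpl7 and of Rpl26l1 to Rpl26 differed by 0.14 and -0.05 in the signals as deposited. Their exact permutation p-values were 0.159 and 0.683 (0.238 and 0.683 adjusted over the 3 pairs). After quantile normalization they differed by 0.11 and -0.13, with exact permutation p-values of 0.341 and 0.0317 (0.341 and 0.0714 adjusted). In that scaling the unadjusted p of Rpl26l1 to Rpl26 was thus smaller than that of Rpl3l to Rpl3.

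Other relatives read dimmer and varied more. Rps27l, a target of p53, had the widest positive difference of the 44 tested members, 0.42 (SE 0.22, adjusted p = 0.279). It read 6.82 to 7.13 with LacZ, and 8.24, 7.40, 7.44, 6.95 and 6.85 with GATA-4. The dim array was the highest, and arrays 4 and 5 lay within the LacZ range. Rps4y2, a relative of the small subunit protein Rps4x, differed by 0.26 (SE 0.15, adjusted p = 0.341), Rpl7l1 by 0.13 (SE 0.10, adjusted p = 0.455) and Rpl26l1 by 0.09 (SE 0.14, adjusted p = 0.760). A second Rpl7l1 probe set read -0.06.

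Some single-gene probe sets of ribosomal proteins were so dim that they tell little. Rpl39 passed the filter at a mean log2 of 6.71 with LacZ and 6.42 with GATA-4, and its difference of -0.29 had an SE of 0.40. Rpl30, Rpl28, Rps13 and Rpl39l1 did not pass, nor did Rpl-1, and those 5 were not tested. Rps13 read 4.29 ± 0.86 with LacZ and 4.98 ± 0.30 with GATA-4, and Rpl39l1 read 3.82 ± 0.89 and 3.36 ± 1.88 (SD, n = 5 each). Rpl-1 read 2.49 ± 1.59 with LacZ and 1.75 ± 1.14 with GATA-4, among the dimmest of the array. Rpl30, a reference gene, read 5.04 and 5.13, and Rpl28, named after its values were seen, 5.05 and 4.93.

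The 33 shared probe sets, which hold ribosomal proteins outside the 49 and some within them, moved in the same way. All 33 were tested and 30 had positive differences after quantile normalization, with a median of 0.13. There were 4 rises and no fall, where 3.71% of all genes tested rose and 2.66% fell. After median centring 21 were positive, with a median of 0.04 and no call, where 4.57% of all genes changed.

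The scaling changed the differences of all bright genes, so bright members were also read against other bright genes, a comparison added after the values were seen. Both sets share a lower bound, a mean log2 of 12, and signals were not matched above it. Of the 300 genes that are no members and have a mean log2 of 12 or more, 11 rose and 41 fell after quantile normalization. After median centring 0 rose and 22 fell. Among all genes tested 3.71% rose and 2.66% fell in the former scaling, and 2.07% and 2.5% in the latter. These 300 genes had a median difference of -0.06 after quantile normalization and -0.15 after median centring, and the 37 bright members had 0.12 and 0.02. Bright members thus lay above other bright genes by 0.18 and 0.17 on the log2 scale, and this gap ran from 0.16 to 0.20 under the 25 alternatives run. Scalings that shift each array by a constant cancel in this gap and all gave 0.17. Other filters, another floor, robust fitting and a fit without the trend left it at 0.18. Such alternatives could not move the gap and are no test of it. The gap also includes the negative medians of the other bright genes. On the signals as deposited, the gap of the 2 medians by array, each as deviation from the genes' mean over the arrays, was -0.04, -0.04, -0.14, -0.14 and -0.07 with LacZ and 0.08, 0.13, 0.20, 0.03 and 0.08 with GATA-4. The groups did not overlap, and the dim array lay with its group. Since the 2 sets were not matched by signal, the part of signal level in this gap, on the dim array too, was not tested. Against all genes instead of bright ones the members' median stood 0.13 higher after quantile normalization and 0.09 higher after median centring, and 0.02 higher after median centring without the dim array.

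**Figure D3:**
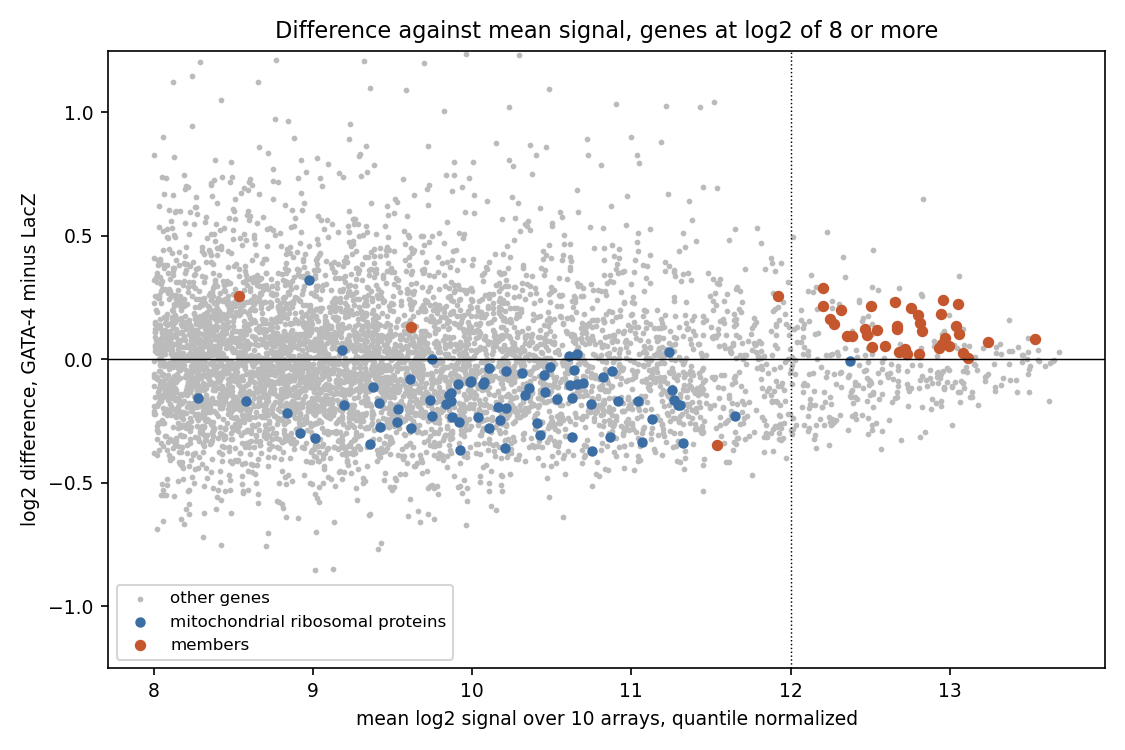
Log2 difference (GATA-4 minus LacZ, y axis) against mean log2 signal over the 10 arrays (x axis) after quantile normalization, for tested genes at a mean log2 of 8 or more: 41 members (orange), mitochondrial ribosomal protein genes (blue) and other genes (grey); 5 genes, none a member, lie beyond the y axis, and the dotted line marks a log2 of 12. The 37 members right of that line all lie above 0, among other bright genes with a median of -0.06, and most mitochondrial ribosomal protein genes lie below 0; after median centring 22 of the 37 lie above 0.

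The median deviation of the 44 tested members from their means over the 10 arrays was -0.01, -0.04, -0.10, -0.11 and -0.04 on LacZ arrays 1 to 5 and 0.02, 0.09, 0.14, 0.00 and 0.06 on GATA-4 arrays 1 to 5 after quantile normalization. LacZ array 4 gave the lowest value of 21 of the 44 members and GATA-4 array 3 the highest of 24. After median centring the same medians were 0.09, -0.07, -0.05, -0.15 and 0.12 with LacZ and 0.26, 0.05, 0.00, -0.17 and -0.03 with GATA-4, so that the groups overlapped and the dim array was the highest of all. In the signals as deposited the dim array was the lowest, at -0.50. Members did not shift by a common amount on the dim array: after quantile normalization the SD of their deviations was 0.304 there and 0.0810 to 0.186 on the other arrays, and that array was the lowest of the 10 for 6 tested members and the highest for 8.

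**Figure D4:**
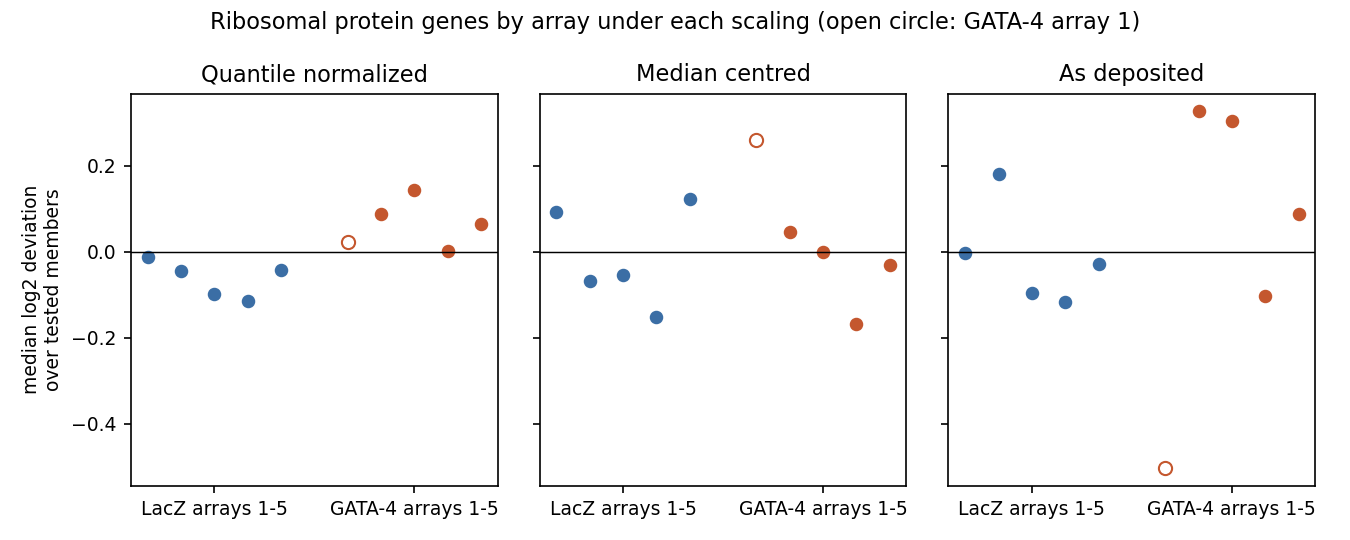
Median log2 deviation of the 44 tested members from each gene's mean over the 10 arrays (y axis), for LacZ arrays 1 to 5 (blue) and GATA-4 arrays 1 to 5 (orange, array 1 as an open circle), after quantile normalization, after median centring and as deposited. The groups are apart, by -0.01 against 0.00 at their closest, after quantile normalization only, and array 1 moves from 0.02 to 0.26 and to -0.50 across the panels.

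Genes of the same pathway were read from lists. Mitochondrial ribosomal proteins, which build the separate ribosome of mitochondria, had a median of -0.17 over 73 genes, 4 of which fell and none rose, and 67 differences were negative; the median was -0.25 after median centring. Of 63 tested genes of ribosome biogenesis 1 rose, Nop58, a core protein of small nucleolar particles (difference 0.38, SE 0.09, adjusted p = 0.0294; 0.125 after median centring; a call kept in 3 of the 10 fits that leave out an array), none fell and the median was 0.08. Of 14 RNA polymerase I subunits and factors none changed, with a median of 0.06. Among 13 other messengers with a TOP tract, such as those of elongation factors, none changed, 11 differences were positive and the median was 0.12, which became 0.01 after median centring. Of 15 genes of growth signalling, Myc, mTOR and its targets among them, none changed and the median was 0.00, or -0.10 after median centring. That median stands between 7 positive and 8 negative differences, from -0.59 to 0.77 after quantile normalization. An unadjusted p under 0.05 was reached by 5 of the 15 in each scaling, where 24.2% and 23.9% of all genes reached it. Rack1, a small subunit protein outside the symbol rule, differed by 0.02, and by -0.07 after median centring.

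Markers of other cells were read beside the members, since in a piece of tissue fewer cells of a type and less RNA per cell cannot be told apart. Of 18 leukocyte markers on the array 15 were tested, 7 rose (5 after median centring), none fell and none was at 0, and the median difference was 0.67 (0.59 after median centring). The 4 with the smallest p were Tyrobp (1.24), Coro1a (0.74), Csf1r (0.54) and Cd14 (0.86), with adjusted p-values from 7.4e-04 to 0.0136. The untested Cd3d, Cd79b and Ms4a1, named after their values were seen, were dim and differed by -0.15, 0.23 and -0.81. Summed over the 18 markers, a sum in which the brightest probe sets weigh most, LacZ arrays had signals of 14074 to 18103. The dim array had 19464, and GATA-4 arrays 2 to 5 had 22971 to 29244. GATA-4 array 3, with the highest member median, also had the highest summed leukocyte signal, and the part of leukocytes in the members' differences was not tested. Among 13 heart muscle markers Ttn fell by 0.27 (SE 0.05, adjusted p = 0.00957; 0.0634 after median centring) and none rose, with a median of -0.03. These markers lay at or above the 99.15th percentile of probe sets, where quantile normalization leaves little room for a difference. Myh7 had the same value, 13.72, on LacZ array 5 and on GATA-4 arrays 2 to 5. Their median is thus no measure of heart muscle content. Fibroblast (8), endothelial (6), atrial (4) and erythroid (2) markers had no changed gene, with medians of 0.03, -0.06, -0.43 and -0.15.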

How the data were processed

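The authors deposited 1 linear intensity per probe set and array, 10 arrays in all. Per the submitters' processing notes they came from GCOS, the scanner maker's software, whose version, algorithm and scaling were not given in the sources used here. Detection calls were not used. Genes were named from GEO's annotation of the platform, and RefSeq (GRCr8) gave current symbols for its gene IDs. Of the members, 47 matched and 2 kept the platform's symbol. The 57 control probe sets were left out.

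Values were taken to log2, quantile normalized over 31042 probe sets and floored at a log2 of 0. The 18625 probe sets with a mean above the 40th percentile entered limma 3.58.1 under R 4.3.3 (lmFit, then eBayes with an intensity trend), without covariates. P-values are two-sided and adjusted by Benjamini-Hochberg over all probe sets tested, with a threshold of 0.05, and "rose" and "fell" mean past it. Single ratios were compared by exact permutation over the 252 assignments. The fit was tested on simulated data with independent noise of equal spread and no dim array, a simpler setting than these data. Array weights used statmod 1.5.0. The number of arrays limits the precision.

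Named are Gata4, the members called under either scaling (up to 12 and 10), the 5 highest and 5 lowest differences, the 3 brightest and 3 dimmest members, the stalk, relatives with their namesakes, Rpl5 and Rpl11, reference genes, and called genes of other lists (the 4 with the smallest p). The members, lists and rules were chosen with earlier results of these data known. Alternatives were other scalings, an added 16, another floor, other filters, other limma settings, other probe set rules and arrays left out.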

Additional observations from a re-analysis of the deposited data

Results flagged for a closer look

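In 7 of 88 groups of 5 arrays examined, 1 array stood apart by Dixon's test at its 95% level, where chance alone gives about 1 in 20. On GATA-4 array 1, the dim array, Rpl3l read 12.07, where arrays 2 to 5 read 11.11 to 11.31, and the log2 ratio of Rpl3l to Rpl3 was -1.19, above their -1.88 to -1.72. On the same array Rpl27 read 12.74, below the 12.98 to 13.03 of the others. On LacZ array 4 Rpl23a read 12.61, below the 12.73 to 12.76 of the other LacZ arrays. On LacZ array 5 the log2 ratio of Rpl26l1 to Rpl26 was -7.42, below the -7.11 to -7.05 of the others, and Cd14 read 9.64, above 9.15 to 9.28. The 2%-trimmed mean signal of LacZ array 2, at 313.6, lay above the 249.2 to 263.1 of the other LacZ arrays.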

How the results depend on the processing

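The count of 4 members that rose was 0 after median centring, in the signals as deposited, after centring on the 90th percentile, after scaling to a common trimmed mean, without a filter, in limma without the trend, without GATA-4 arrays 4 and 5, and after median centring without the dim array, settings in which 0.0655% to 7.56% of all genes rose. It was 7 of 42 tested members with the filter at the 60th percentile (5.06% of all genes rose) and 15 of 44 with array weights (9.6%). With single arrays left out it ran from 0 to 13 (0.944% to 9.95%), and the members that fell numbered 0 or 1, where the 1, Rpl3l, also fell with array weights and after median centring without the dim array. The members' median difference of 0.12 was 0.031 after median centring and 0.033 as deposited, -0.024 after median centring without the dim array, and 0.10 to 0.13 with single arrays left out. After median centring 15 of the 44 tested members turned from positive to negative, and of the tested members named by rule these differences turned. After median centring Rps3a read -0.10, Rpl23a -0.050, Rpl7 -0.065, Rpl7a -0.034, Rpl5 -0.040 and Rpl27 -0.056, and as deposited they read -0.098, -0.048, -0.062, -0.031, -0.038 and -0.053. Rps3a read -0.034 after centring on the 90th percentile and with a common trimmed mean. After median centring without the dim array Rps3a read -0.16, Rpl23a -0.13, Rpl7 -0.13, Rps29 -0.14, Rpl7a -0.12, Rplp0 -0.086, Rpl5 -0.12, Rpl4 -0.019, Rpl27 -0.079, Rpl19 -0.10 and Rpl22 -0.057. With single arrays left out Rps3a ran from -0.011 to 0.042 and Rpl23a from -0.0058 to 0.034. The dim, untested Rpl30 and Rpl39l1 also changed sign there, from -0.027 to 0.33 and from -0.84 to 0.31. Rpl39l1 read 0.077 with the floor at the 20th percentile. The averaged probe sets of Rpl3 read -0.34. The log2 ratio of Rpl3l to Rpl3 lost its call after quantile normalization (-0.59, adjusted exact permutation p = 0.0714), an alternative added after seeing the data. The causes were not tested. No paired analysis was possible because the labels give the groups no shared replicate numbers. The other alternatives, an added 16, another floor, robust limma and other probe set rules, left 3 to 5 members risen. Most members are among the brightest probe sets, and 10 arrays limit the precision of differences this small.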
